A study of Mus musculus with 6 samples.

Results

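Genes of neurotrophin and neuregulin signalling and of Schwann cells, the glia of peripheral nerves, were examined in subcutaneous inguinal fat (iWAT) that carried an *Hlx* transgene. The set held 7 genes, *Ngfr*, *Nrg1*, *Nrg4*, *Erbb3*, *Mbp*, *Sox10* and *Pmp22*, each taken from the deposited row of that gene symbol, out of 19445 loci in the table. The libraries came from 3 transgenic mice (TG 1 to TG 3), which carried full-length *Hlx* cDNA, a homeodomain transcription factor, under the *aP2* (*Fabp4*) promoter, and from 3 littermate controls (WT 1 to WT 3). All mice were labelled male and 12 weeks old, and each gave 1 RNA-Seq library. Transgenic founders were C57BL/6 × SJL hybrids, later backcrossed to C57BL/6, and the sources used here do not say how many transgenic lines the mice represent. The *aP2* promoter is active mainly in fat cells, so the 7 genes were read in tissue that also held nerve, vessel, mammary duct and lymph node cells. Values are FPKM, a read density that is scaled by the length of the transcript and by the size of the library.

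*Hlx* itself was at 109.7, 79.6 and 99.5 FPKM in TG 1 to TG 3 and at 6.88, 7.35 and 8.14 in WT 1 to WT 3, which fits the genotype labels. The fat cell marker *Plin1* lay at 680 to 842 FPKM in all 6 libraries. *Xist*, the RNA of the inactive X chromosome, lay at 20.2 to 33.6 FPKM in all 6 libraries and the 28 Y chromosome loci all read 0, which goes against the male label in both genotypes alike. A difference in bulk tissue can come from fewer cells of a type or from less RNA per cell, and these cannot be told apart here.

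Neurotrophins are secreted proteins that keep sensory and sympathetic neurons alive and guide their axons. They act through the Trk receptor kinases and through p75NTR, the product of *Ngfr*, which is also abundant on Schwann cells that are not myelinating. Neuregulins are ligands of the EGF family: NRG1 on axons drives the growth of Schwann cells and their myelin through ERBB2 and ERBB3, whereas NRG4 binds ERBB4 and is known as a factor secreted by fat, brown fat in particular. SOX10 is the transcription factor that defines Schwann cells among the cells of a nerve, and MBP and PMP22 are proteins of the myelin sheath.

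Promoter sequence from RefSeq (GRCm38.p6, the assembly also called mm10) was read for 3 of the 7 genes. It is shown for *Ngfr* and *Nrg4*, which rose, and for *Pmp22*, which is known for a promoter used in Schwann cells and another used broadly. *Mbp*, which also rose, is not among them. Each window holds the 250 bases before an annotated start, 5′ to 3′ on the strand of the gene. Capitals mark GGGCGG, the core of a GC box, or TGACCT, the half-site of many nuclear receptors, on either strand. The *Ngfr* window lies at chr11:95587699-95587948 on the minus strand and is 70.4% G and C. The *Nrg4* window lies at chr9:55283626-55283875 on the minus strand and is 53.2% G and C. *Pmp22* had 4 annotated starts, whose windows could not be assigned to these promoters here, and the 2 farthest upstream are shown. They lie at chr11:63128732-63128981 and chr11:63131207-63131456 on the plus strand and are 48.8% and 61.2% G and C.
Ngfr: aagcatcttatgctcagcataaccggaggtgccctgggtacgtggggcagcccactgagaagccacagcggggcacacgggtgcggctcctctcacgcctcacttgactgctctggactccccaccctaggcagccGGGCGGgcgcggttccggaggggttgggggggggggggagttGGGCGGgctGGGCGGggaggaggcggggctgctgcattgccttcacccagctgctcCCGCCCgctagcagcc
Nrg4: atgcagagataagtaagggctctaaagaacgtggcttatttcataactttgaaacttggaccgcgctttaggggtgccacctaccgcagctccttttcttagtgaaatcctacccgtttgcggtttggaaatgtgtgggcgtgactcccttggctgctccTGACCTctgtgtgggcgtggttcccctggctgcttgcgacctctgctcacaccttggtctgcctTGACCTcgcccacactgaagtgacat
Pmp22 window 1: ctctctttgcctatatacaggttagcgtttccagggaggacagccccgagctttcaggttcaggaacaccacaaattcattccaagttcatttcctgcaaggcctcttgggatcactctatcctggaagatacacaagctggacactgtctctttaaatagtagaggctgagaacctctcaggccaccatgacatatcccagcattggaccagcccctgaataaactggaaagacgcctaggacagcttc
Pmp22 window 2: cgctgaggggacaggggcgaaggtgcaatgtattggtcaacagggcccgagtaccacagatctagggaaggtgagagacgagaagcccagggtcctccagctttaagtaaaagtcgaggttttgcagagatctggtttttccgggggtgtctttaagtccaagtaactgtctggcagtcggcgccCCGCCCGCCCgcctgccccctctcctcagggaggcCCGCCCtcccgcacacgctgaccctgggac

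The *Ngfr* window held 4 copies of GGGCGG, the *Pmp22* windows from the first to the last start held 0, 3, 0 and 3, against 32.7% of all 32841 windows of this length that held at least 1 copy. The *Nrg4* window held 2 copies of TGACCT, against 14.0% of all windows that held at least 1 copy. The G and C content of the *Ngfr* window was above the upper quartile of all windows (61.2%), and that of the first *Pmp22* window lay between the lower quartile (45.2%) and the median (52.4%). The last 2 *Pmp22* windows were 64.8% and 73.6% G and C. ACAAAG and ACAATG (SOX cores, in 16.5% and 10.7% of all windows), TAATTA and TAATTG (homeodomain cores, 4.84% and 7.17%) and TATAAA (the TATA box, 12.4%) were in none of these windows. The FPKM of the *Pmp22* row does not separate transcripts from its promoters.

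In control iWAT the 7 genes covered a wide range of levels. *Pmp22* was the most abundant at 129 ± 36.9 FPKM (SD, n = 3 in this and all further means), followed by *Nrg4* (51.3 ± 6.57), *Mbp* (16.0 ± 2.38), *Sox10* (6.90 ± 2.81), *Erbb3* (2.68 ± 0.959) and *Ngfr* (1.34 ± 0.485), with *Nrg1* under 0.2 FPKM in every mouse. No pair of neighbours in this order shared values among the control mice, although the lowest *Erbb3* value (1.96) was close to the highest *Ngfr* value (1.89). In transgenic iWAT *Pmp22* (104 ± 6.17), *Nrg4* (75.6 ± 3.31) and *Mbp* (23.7 ± 2.47) kept this order, whereas *Sox10* (5.86 ± 3.45), *Ngfr* (3.19 ± 0.915) and *Erbb3* (2.09 ± 0.817) overlapped as neighbours.

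Of the 7 genes, 6 had a mean above 1 FPKM, all 6 of them in both genotypes, and were tested by limma with the other loci above that level (11692 in all). *Ngfr*, *Nrg4* and *Mbp* rose in transgenic iWAT (3 of 6 tested, where 11.6% of all loci tested rose) and *Sox10*, *Erbb3* and *Pmp22* did not pass the test. None of the 6 was lower by limma at an adjusted p under 0.05, while 7.03% of all loci tested fell at that threshold. None was lower at an unadjusted p under 0.05 either, for which no share of all loci was taken. In the same 3 that rose, every transgenic mouse lay above every control mouse, which held for 22.8% of all loci tested. The reverse, every transgenic mouse below every control mouse, held for none of the 6 and for 20.1% of all loci tested. The shares of 11.6% and 7.03% are also the reference for the counts of genes that rose or fell in the lists below. Counts at an unadjusted p have no such reference and are a description only. The values of each gene follow, ordered by role.

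**Figure D1:**
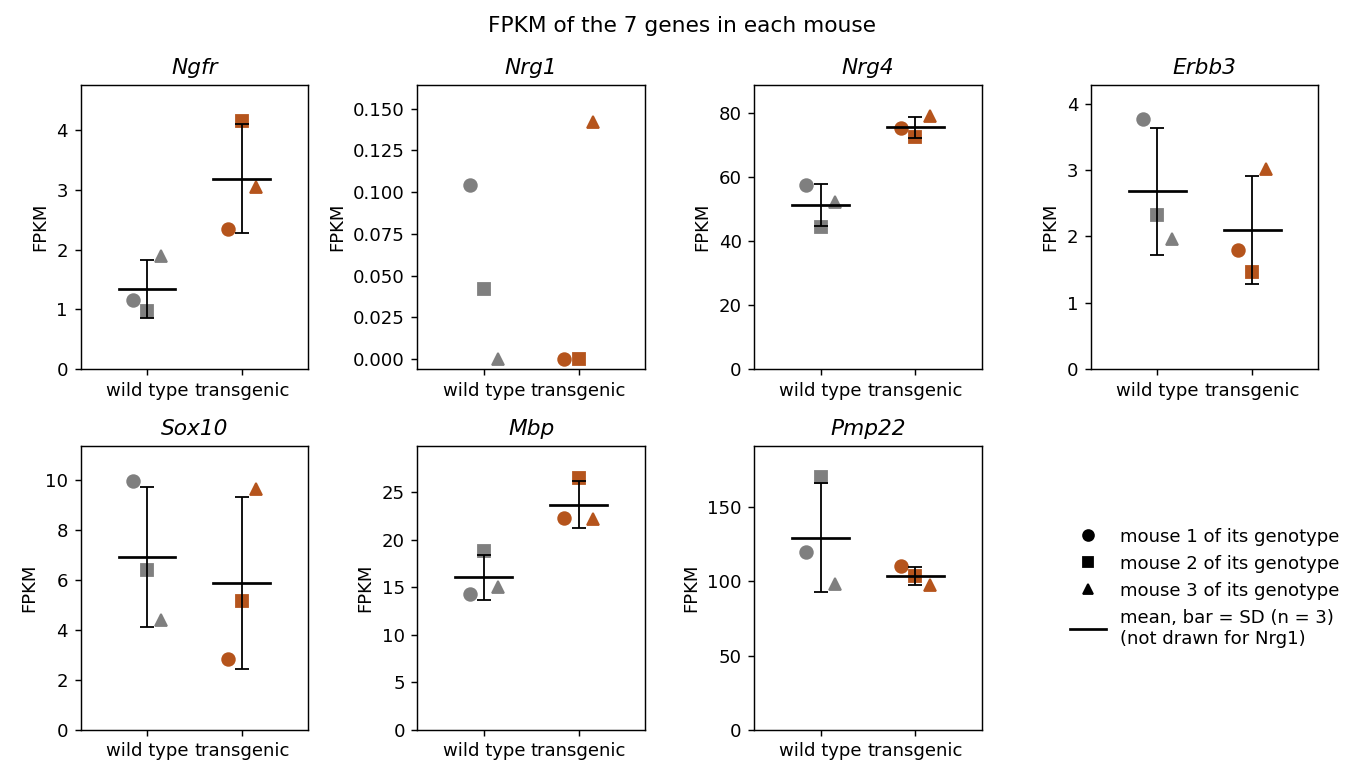
FPKM of each of the 7 genes (vertical axis, a separate linear scale per gene) in the 3 wild-type and 3 transgenic mice; points are mice, horizontal lines means and vertical bars SD (n = 3, not drawn for *Nrg1*). The transgenic points stand above all wild-type points for *Ngfr*, *Nrg4* and *Mbp* and mix with them for *Nrg1*, *Erbb3*, *Sox10* and *Pmp22*.

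*Ngfr* (chr11:95568820-95587698, minus strand) encodes p75NTR, which binds all neurotrophins and their precursors. It was at 2.35, 4.16 and 3.05 FPKM in TG 1 to TG 3 and at 1.15, 0.972 and 1.89 FPKM in WT 1 to WT 3. TG 2 was the highest and WT 3 came closest to the transgenic mice, without reaching the lowest of them. The mean was 2.38 times the control mean, and the log2(FPKM + 1) difference, a scale that shrinks changes of genes this low, was 0.84 (SE 0.21, limma adjusted p = 0.0329). The call was lost without TG 2, TG 3, WT 1 or WT 2 (limma adjusted p 0.0669, 0.0861, 0.0865 and 0.0925). The differences in these fits were 0.68 to 0.85. Such a fit has fewer mice, so a lost call does not show that 1 mouse made the difference. With 3 mice a genotype an exact permutation test of 1 gene cannot give a two-sided p below 0.1, which is the p it gave for *Ngfr*, *Nrg4* and *Mbp*.

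The ligands examined were scarce. *Ntf3*, neurotrophin 3, was at 2.35, 1.60 and 1.67 FPKM in the transgenic and 1.57, 1.37 and 1.91 FPKM in the control mice, where the genotypes overlapped, and it did not pass the test (log2 difference 0.13, SE 0.14, adjusted p = 0.559). *Bdnf* and *Ntf5* stayed under the level tested, at no more than 0.411 and 0.857 FPKM.

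Among the receptors, *Ntrk3*, which encodes the neurotrophin 3 receptor TrkC, rose. It was at 52.7, 27.0 and 46.1 FPKM in the transgenic mice and at 8.98, 10.9 and 8.60 FPKM in the controls, a log2 difference of 1.98 (SE 0.24, adjusted p = 0.00258), and TG 2, the highest mouse for *Ngfr*, was the lowest transgenic mouse for *Ntrk3*. The call held in all 15 alternative analyses (adjusted p 0.00102 to 0.0307). *Ntrk2*, the BDNF receptor TrkB, was at a similar level in both genotypes, 57.2 ± 7.19 against 54.1 ± 4.94 FPKM (log2 difference 0.08, SE 0.12, adjusted p = 0.673). FPKM of a gene does not separate full-length Trk receptors from truncated forms without the kinase.

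Of 12 receptors and partners of p75NTR in the list, 11 were tested, of which *Ntrk3* rose, *Maged1* fell and 9 did not pass, with a median log2 difference of -0.10 over the 10 whose means exceeded 1 FPKM in both genotypes, against -0.01 over all loci tested. *Maged1*, also called NRAGE, binds the cytoplasmic part of p75NTR. It was at 101, 98.6 and 88.5 FPKM in the transgenic mice and at 159, 136 and 139 FPKM in the controls, every transgenic mouse lying below every control (-0.58, SE 0.10, adjusted p = 0.00974). *Sort1*, sortilin, which joins p75NTR to bind neurotrophin precursors, was at 72.3 ± 2.26 against 84.4 ± 4.27 FPKM and did not pass (-0.22, SE 0.08, adjusted p = 0.092). *Rtn4r*, the Nogo receptor that uses p75NTR as a partner, was higher in each transgenic mouse than in each control and did not pass either (0.70, SE 0.22, adjusted p = 0.0647). In the list of GDNF family ligands and receptors, another group of neurotrophic factors, 4 of 9 were tested and *Gfra2*, the neurturin receptor, fell from 6.60 ± 1.53 to 3.77 ± 0.539 FPKM (-0.66, SE 0.16, adjusted p = 0.0321). That call was lost without TG 1, TG 3, WT 1 or WT 3 (adjusted p 0.0711 to 0.0864).

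**Figure D2:**
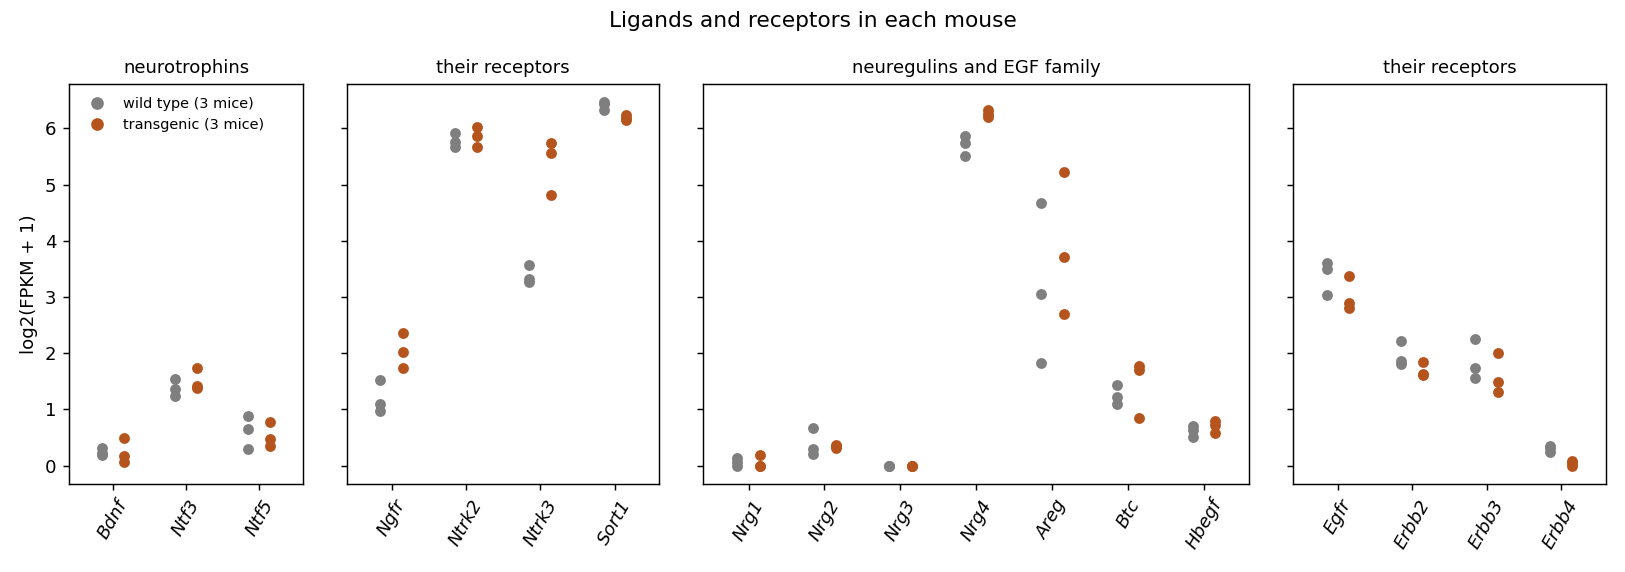
Level on the log2(FPKM + 1) scale (vertical axis) of neurotrophins, their receptors, neuregulins with other EGF family ligands, and ERBB receptors, each point 1 mouse. *Nrg4* and *Ntrk3* stand out among the genes whose transgenic mice all lie above the controls, *Nrg1* and *Nrg3* lie at or near 0, and *Erbb4* is the lowest of the 4 ERBB receptors in every mouse.

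*Nrg4* (deposited row chr9:55148363-55283692) was the abundant neuregulin of iWAT and, for its level, the gene of the set with the least spread between mice of a genotype. It was at 75.4, 72.3 and 79.0 FPKM in TG 1 to TG 3 and at 57.3, 44.3 and 52.2 FPKM in WT 1 to WT 3. The gap between the lowest transgenic and the highest control mouse was wider than the range within either genotype. The mean was 1.47 times the control mean, with a log2 difference of 0.56 (SE 0.11, adjusted p = 0.0151), and the call was lost only without TG 3 (adjusted p = 0.0594) among the 6 fits that left out 1 mouse. The GENCODE gene on the minus strand (55220222 to 55326844) overlaps *Fbxo22* on the plus strand, and the library kit did not mark strand, so reads of the overlap cannot be assigned. The joint row of *Fbxo22* and *Ube2q2*, which lies in the same span, was at 41.8, 33.8 and 40.7 FPKM in the transgenic and 43.8, 40.8 and 38.6 FPKM in the control mice, where the genotypes overlapped.

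*Nrg1* (deposited row chr8:31818027-31918203, which covers a part of the GENCODE gene on the minus strand, 31814551 to 32884029) was listed at 0 in TG 1, TG 2 and WT 3 and at 0.142 FPKM in TG 3, 0.104 in WT 1 and 0.0418 in WT 2. At this level no difference could be detected (exact permutation test, p = 1), and transcripts from starts outside the row would not be seen. *Nrg2* stayed between 0.155 and 0.586 FPKM and *Nrg3* was listed at 0 in every mouse. The log2 difference of *Nrg4* less that of *Nrg1* was 0.56, with no overlap between genotypes (exact permutation test, p = 0.1, and 0.5 after adjustment over the 5 pairs of members compared). With *Nrg1* near 0, this value is almost the change of *Nrg4* alone, so it cannot show that the 2 genes responded differently. With a pseudocount of 0.1 it was 0.65 (exact permutation test, p = 0.2).

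Of the other EGF family ligands only *Areg*, amphiregulin, and *Btc*, betacellulin, were above the level tested, and neither of them passed the test. *Areg* was at 5.50, 12.1 and 36.4 FPKM in TG 1 to TG 3 and at 7.33, 2.56 and 24.5 FPKM in WT 1 to WT 3, a spread within each genotype far larger than the difference between them (log2 difference 0.69, SE 0.83, adjusted p = 0.582). *Btc* gave 0.19 (SE 0.26, adjusted p = 0.619). Neither passed limma at an unadjusted p under 0.05, and the other 7 of the list of 9 were under the level tested.

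*Erbb3* (chr10:128567532-128589686, minus strand) encodes the neuregulin receptor that has little kinase activity of its own and signals with ERBB2. It was at 1.79, 1.47 and 3.02 FPKM in TG 1 to TG 3 and at 3.77, 2.32 and 1.96 FPKM in WT 1 to WT 3, so the genotypes overlapped, with WT 1 and TG 3 the highest. The log2 difference was -0.25 (SE 0.24, adjusted p = 0.477). A second deposited row of the same span gave 1.35, 1.66 and 3.20 FPKM in the transgenic and 2.77, 1.99 and 1.86 FPKM in the control mice (-0.10, adjusted p = 0.782), with the same 2 mice highest. *Erbb2* was at 2.11, 2.06 and 2.58 against 3.63, 2.50 and 2.65 FPKM (-0.27, SE 0.14, adjusted p = 0.213). *Erbb4*, the receptor of NRG4, was under 0.3 FPKM in every mouse, at 0, 0.0403 and 0.0577 FPKM in the transgenic and 0.271, 0.181 and 0.240 FPKM in the control mice. Every transgenic mouse lay below every control. The limma fit without the level filter gave -0.25 (SE 0.04, adjusted p = 0.032), from values near 0.

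Of 11 ERBB receptors and regulators, 10 were tested, 1 rose and 1 fell, which is near the shares of all loci tested (11.6% and 7.03%). Their median log2 difference was -0.21, against -0.01 over all loci tested. *Bace1*, a protease that cleaves NRG1, rose from 5.06 ± 0.335 to 6.96 ± 0.508 FPKM (0.39, SE 0.09, adjusted p = 0.025). *Errfi1*, a feedback inhibitor of EGFR and ERBB2, fell from 18.0 ± 2.98 to 11.6 ± 1.94 FPKM (-0.59, SE 0.15, adjusted p = 0.0402). Neither call held in every fit that left out 1 mouse. That of *Bace1* was lost in 5 of these 6 fits, all but the one without TG 2 (limma adjusted p up to 0.0815). That of *Errfi1* was lost without TG 1, TG 3, WT 1 or WT 2 (adjusted p up to 0.119). Over the 6 fits the log2 difference was 0.35 to 0.44 for *Bace1* and -0.72 to -0.50 for *Errfi1*.

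*Mbp* (chr18:82474870-82585637, plus strand) encodes myelin basic protein, and its locus also gives golli transcripts, which are made in lymphoid cells as well and which the row does not separate. It was at 22.3, 26.5 and 22.2 FPKM in TG 1 to TG 3 and at 14.3, 18.8 and 15.1 FPKM in WT 1 to WT 3. Mouse 2 was the highest of each genotype, and the lowest transgenic mouse lay above the highest control. The mean was 1.48 times the control mean and the log2 difference 0.54 (SE 0.12, adjusted p = 0.0262). The call was lost without any 1 mouse other than WT 2, at adjusted p of 0.0507 (TG 1), 0.0564 (TG 2), 0.0604 (TG 3), 0.0719 (WT 1) and 0.0871 (WT 3), with differences of 0.46 to 0.58.

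Most other genes of myelinating Schwann cells lay under the level tested in iWAT. Of 19 in the list, 17 had a row, 12 of these had a mean of at most 1 FPKM in both genotypes and 5 were tested, of which 1 rose and none fell. *Prx* passed the filter through its transgenic mean alone, and the median log2 difference of the other 4 was 0.07. At an unadjusted p under 0.05, limma gave 2 of the 5 higher and 2 lower. *Egr2*, the transcription factor that drives the myelin program, rose from 1.86, 1.88 and 2.23 to 2.95, 3.27 and 3.30 FPKM (0.48, SE 0.10, adjusted p = 0.0192). Without TG 3, WT 1 or WT 2 its adjusted p was 0.0695, 0.0577 and 0.0671. The cell type behind the *Egr2* RNA was not tested. *Prx*, periaxin, was at 0.573, 1.51 and 0.930 FPKM in the transgenic and 0.513, 0.798 and 0.668 FPKM in the control mice. It was highest in TG 2 and overlapped between genotypes (0.25, SE 0.19, adjusted p = 0.386), while *Cnp*, an enzyme of myelin that other cells use too, was the most abundant of the list at 21.8 and 27.4 FPKM on average in transgenic and control mice and gave -0.32 (SE 0.12, adjusted p = 0.0956). *Mag*, a protein of the inner myelin sheath, did not exceed 0.501 FPKM.

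*Pmp22* (chr11:63128936-63159650, plus strand) is a myelin gene that fibroblasts, endothelial cells and epithelia also express. It was at 110.1, 104 and 97.8 FPKM in TG 1 to TG 3 and at 120, 170.3 and 98.5 FPKM in WT 1 to WT 3. WT 2 stood far above the other 5 mice, among which the genotypes overlapped. The log2 difference was -0.28 (SE 0.19, adjusted p = 0.325), and it lay between -0.46 and -0.07 when 1 mouse was left out. Its level was several times that of *Mbp* in every mouse.

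Genes of non-myelinating and immature Schwann cells went both ways. *S100b*, a calcium-binding protein of Schwann cells that brown fat cells also express, rose from 3.49, 3.13 and 2.31 to 93.4, 37.4 and 55.5 FPKM (log2 difference 3.90, SE 0.31, adjusted p = 0.000715). *Matn2*, an extracellular matrix protein, fell from 20.6 ± 4.24 to 7.16 ± 1.05 FPKM (-1.39, SE 0.16, adjusted p = 0.00234). The other 6 of the 8 tested did not pass, and 6 of the list of 14 lay under the level tested, *Gfap* among them at no more than 0.0655 FPKM. *Cdh19*, a cadherin of Schwann cell precursors, was at 1.92, 1.26 and 1.57 against 1.03, 1.17 and 0.829 FPKM (0.36, SE 0.14, adjusted p = 0.119). In the list of axon and sympathetic neuron genes 13 of 16 were under the level tested, and the noradrenaline enzymes *Th* and *Dbh* were listed at 0 in all mice. *Stmn2*, a microtubule regulator of neurons, fell from 5.03 ± 0.423 to 3.14 ± 0.532 FPKM (-0.55, SE 0.12, adjusted p = 0.0237). Its adjusted p rose to between 0.0503 and 0.0836 without TG 3 or any control mouse.

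**Figure D3:**
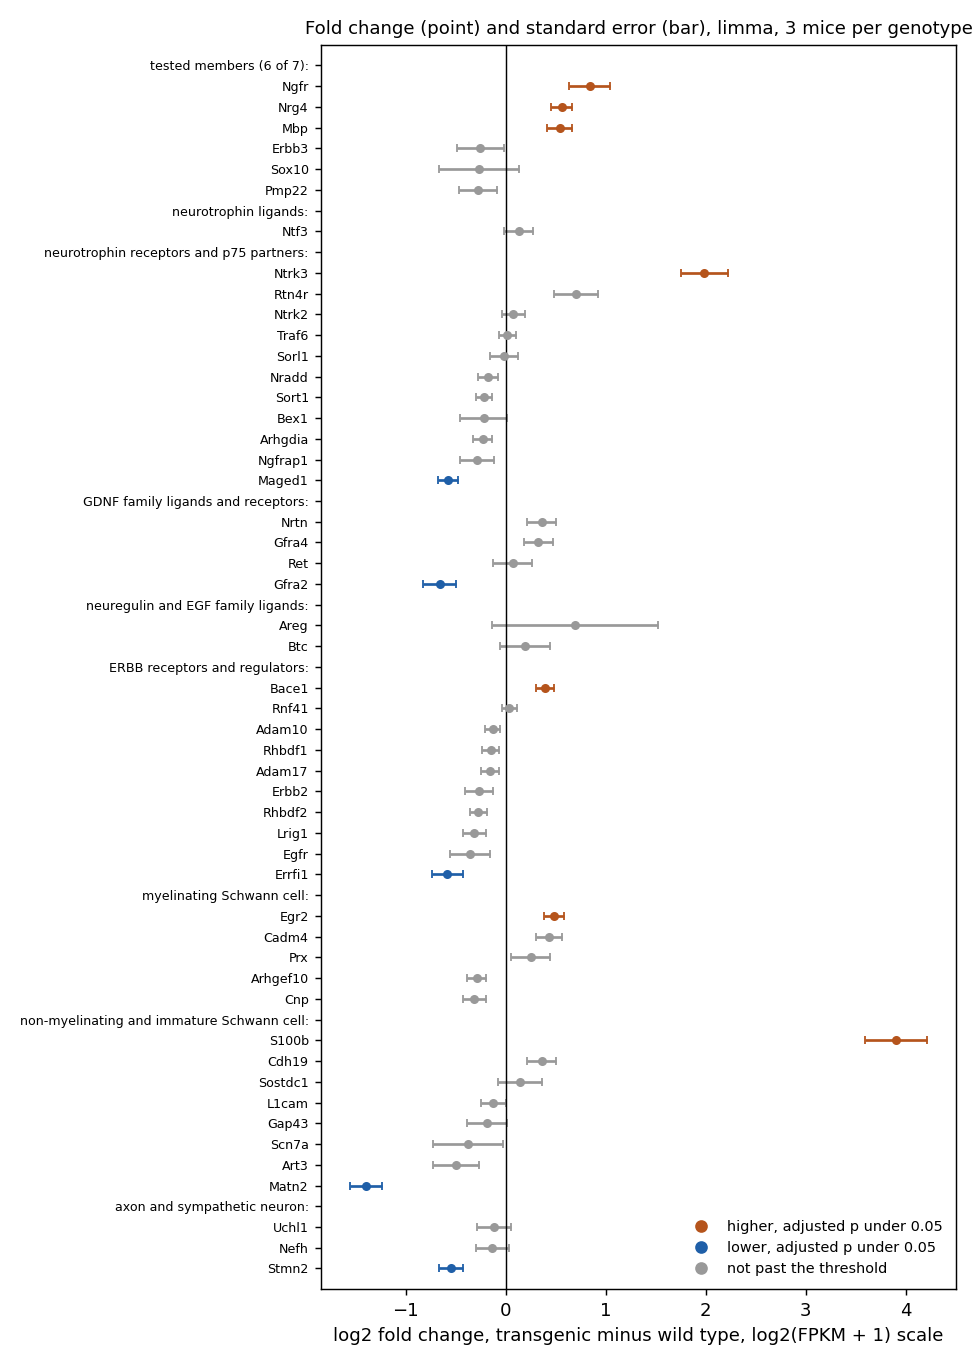
Log2 difference of transgenic minus wild type (horizontal axis, log2(FPKM + 1) scale) for the 6 members tested and every tested gene of 8 pathway and nerve lists; points are limma estimates, bars their SE, and colour marks the call. *Ngfr*, *Nrg4* and *Mbp* lie right of 0 and *Erbb3*, *Sox10* and *Pmp22* left of 0 and not past the threshold, whereas *S100b* (3.90) and *Ntrk3* (1.98) lie farthest to the right.

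*Sox10* (chr15:79154912-79164490, minus strand) varied among the mice of each genotype. It was at 2.81, 5.16 and 9.61 FPKM in TG 1 to TG 3 and at 9.94, 6.38 and 4.39 FPKM in WT 1 to WT 3, so that TG 3 and WT 1 were alike and both genotypes spanned nearly the same range. The log2 difference was -0.27 (SE 0.40, adjusted p = 0.659) and changed sign to 0.09 without TG 1. Outside the nerve, SOX10 is also a factor of mammary epithelium and of melanocytes, and ERBB3 is a receptor of many epithelia.

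The loci whose pattern over the 6 mice was most like that of *Sox10* were *Elf5*, a transcription factor of milk-producing mammary epithelium, *Cldn3*, a tight junction protein of epithelia, and *Spnb3*, a spectrin. Likeness was the root mean square difference of log2(FPKM + 1) after each locus was set to mean 0 and SD 1 over the 6 mice, and it was 0.098, 0.111 and 0.145 for these 3. *Elf5* was at 2.39, 5.11 and 9.94 FPKM in TG 1 to TG 3 and at 11.5, 6.81 and 3.68 FPKM in WT 1 to WT 3, which is the order of *Sox10*. *Cldn3* was at 6.67, 11.0 and 17.7 against 20.1, 14.1 and 10.3 FPKM, in the same order. The epithelial genes *Epcam* and *Krt5* ranked 33 and 37 of the 11692 loci tested by likeness to *Sox10*, and the myelin genes *Prx* and *Egr2* ranked 5241 and 7929. With 6 mice, all from 1 table, these ranks are a description.

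*Erbb3* was nearest to *Ephb4* (0.207), *Epn3* (0.232) and *Cdkn1c* (0.245), and the epithelial genes *Cldn3*, *Elf5*, *Epcam* and *Krt5* ranked 113, 121, 124 and 544 for it, against 10384 for *Egr2*. *Erbb3* and *Sox10* differed from each other by a genotype difference of 0.01, with overlap (exact permutation test, p = 1). The summed FPKM of the 12 epithelial and mammary genes was 148, 206 and 295 in TG 1 to TG 3 and 342, 282 and 244 in WT 1 to WT 3, again with TG 1 the lowest mouse and WT 1 the highest. The summed levels of the fibroblast (1074 in TG 1 to 2020 in WT 1), pericyte and smooth muscle (169 to 292) and melanocyte lists (8.64 to 22.3) had the same lowest and highest mouse. All 12 epithelial and mammary genes were tested and 12 of 12 had a log2 difference under 0, with a median of -0.37 against -0.01 over all loci tested. They were led in level by *Krt19* (-0.43, adjusted p = 0.233) and *Krt18* (-0.67, adjusted p = 0.0792). None of the 12 passed limma, although 4 were lower at an unadjusted p under 0.05. The part of epithelial RNA in the *Sox10* and *Erbb3* values was not tested.

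**Figure D4:**
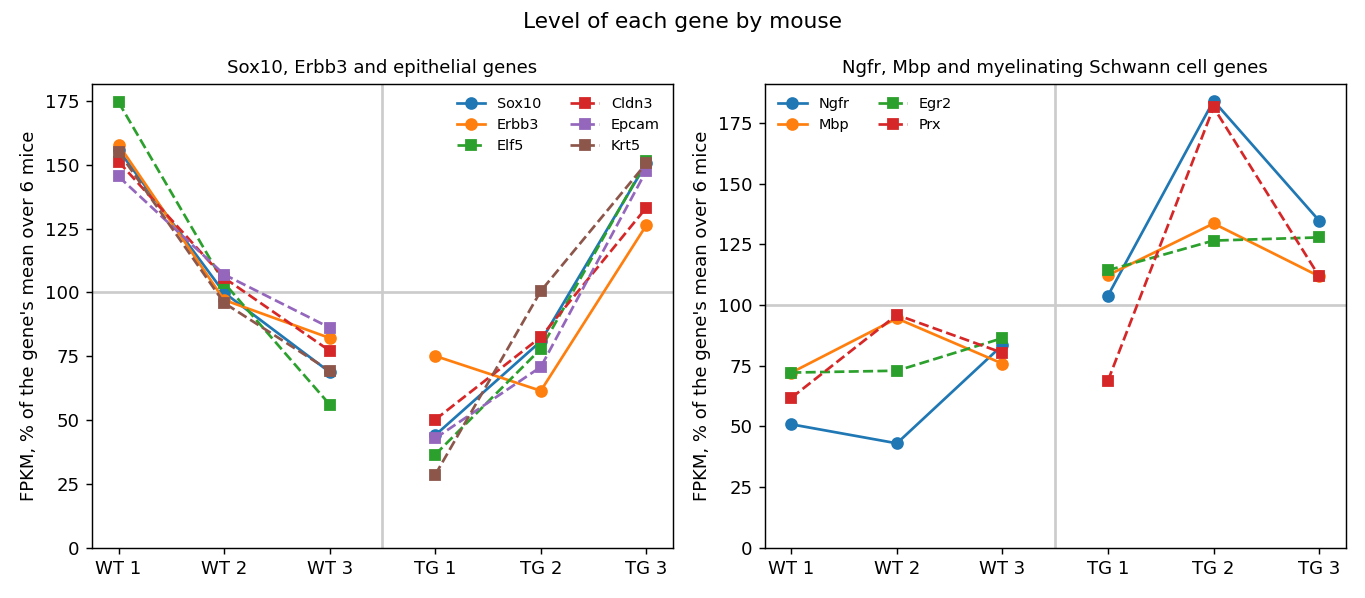
FPKM in each mouse as a percentage of the mean of that gene over all 6 mice (vertical axis) for *Sox10*, *Erbb3* and 4 epithelial genes (left) and for *Ngfr*, *Mbp* and 2 myelinating Schwann cell genes (right); lines only join the values of a gene, since mice have no order. On the left all 6 genes are high in WT 1 and TG 3, and *Erbb3* departs from the rest in TG 1 and TG 2. On the right all 4 lines peak in the transgenic mice, 3 of them in TG 2, which holds for the genes drawn only. Of the tested genes of that list not drawn, *Cadm4* gave a log2 difference of 0.43, *Cnp* -0.32 and *Arhgef10* -0.29.

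*Ngfr* and *Mbp* had other neighbours. Likeness kept the genotype difference in, so loci that rose without overlap, *Egr2* among them, tend to lie near them for that reason. Nearness to such a locus partly repeats the call. For *Mbp* the nearest loci were *Lyrm7* (0.0716), a mitochondrial assembly factor, *Tpm1* (0.151), a tropomyosin, and *Ncan* (0.168), a proteoglycan, and *Egr2* ranked 503 (0.505). For *Ngfr* they were *Fbxo30* (0.137), *Pon1* (0.176) and *Solh* (0.19), and *Egr2* ranked 16 (0.291). The myelin gene *Prx* ranked 1052 for *Ngfr* and 1517 for *Mbp*, and *S100b* ranked 800 and 655. Relative to *Sox10* in the same mouse, the difference was 1.11 for *Ngfr* (exact permutation test, p = 0.2) and 0.81 for *Mbp* (p = 0.3), each with overlap between genotypes, so a different response of these members was not shown. *Nrg4* was nearest to *Rap2c* (0.0979), *Zfyve9* (0.1) and the joint row of *Mir1903* and *Nrp1* (0.109), and *Pmp22* to *AW555464* (0.139) and *Zdhhc5* (0.157).

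Markers of other cells moved with some of these genes. Skeletal muscle RNA was most abundant in TG 2, where the 7 muscle genes summed to 499 FPKM, against 64.6 and 95.4 in TG 1 and TG 3 and 6.19 to 95.5 in the controls. None of the 7 passed limma (1 was higher at an unadjusted p under 0.05), the median log2 difference of the 5 whose means exceeded 1 FPKM in both genotypes was 2.19, and *Acta1* and *Mylpf*, the most abundant, gave 2.36 (adjusted p = 0.147) and 2.17 (adjusted p = 0.115). *Acta1* ranked 133 by likeness to *Mbp* and 1294 by likeness to *Ngfr*. TG 2 was also the highest mouse for *Ngfr*, *Mbp* and *Prx*. Without it the log2 differences of *Ngfr* and *Mbp* were 0.68 and 0.46, and the part of muscle and its nerve in them was not tested.

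Lymph nodes lie within this fat pad. Of 8 markers of B cells and follicular dendritic cells, 5 fell, against 7.03% of all loci tested. These were *Madcam1* (-1.13, adjusted p = 0.00369), *Cxcl13* (-0.93, 0.0288), *Fcer2a* (-0.93, 0.0168), *Cr2* (-0.80, 0.0386) and *Ms4a1* (-0.76, 0.0361). The 8 markers summed to 147 to 171 FPKM in the transgenic and 228 to 389 FPKM in the control mice. The 5 became 1 without TG 3, 2 without TG 1, 3 without WT 2, 7 without WT 1 and 1 without the filter on low FPKM. All 7 T cell genes lay under 0 with none called by limma (1 lower at an unadjusted p under 0.05, median -0.22), with *Cd4* the lowest (-0.67, adjusted p = 0.0712) and the most abundant, *Cd3g* and *Cd3e*, at -0.34 (adjusted p = 0.259) and -0.25 (adjusted p = 0.298). Of 7 melanocyte genes, which share *Sox10* with Schwann cells, 4 were tested and *Mlana* (-1.91, adjusted p = 0.0115) and *Dct* (-0.63, adjusted p = 0.0347) fell, both of which passed the level filter through the controls alone. The *Dct* call was lost without any 1 of 5 mice, all but TG 2, and *Mlana* was at 0, 0.396 and 0 against 5.59, 3.52 and 1.51 FPKM. *Tyrp1*, a defining pigment gene, was listed at 0 in every mouse.

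Of 8 endothelial genes 2 rose, *Kdr* (0.35, adjusted p = 0.0329) and *Emcn* (0.50, adjusted p = 0.0222), against 11.6% of all loci tested. The list went both ways, with 4 log2 differences above 0, 4 below and a median of 0.04. Every transgenic mouse lay above every control for 4 of the 8 genes, against 22.8% of all loci tested. The reverse held for 2, *Vwf* (-0.47, adjusted p = 0.0696) and *Erg* (-0.15, adjusted p = 0.32), against 20.1% of all loci tested. Among 10 fibroblast genes *Dpt* fell (-1.37, adjusted p = 0.00275), and among 8 fat cell genes *Retn* (-2.02, adjusted p = 0.00346), *Adipoq* (-0.85, adjusted p = 0.0172) and *Lpl* (-0.67, adjusted p = 0.0209) fell. None of 8 pericyte and smooth muscle genes passed limma at an adjusted or unadjusted p under 0.05, with *Acta2* at -0.35 (adjusted p = 0.627) and *Rgs5* at 0.16 (adjusted p = 0.485). Of the 6 genes called in these lists, only *Dpt* and *Retn* kept their call in each fit that left out 1 mouse. That of *Kdr* was lost without any mouse but WT 3, that of *Emcn* without TG 3, WT 2 or WT 3, that of *Adipoq* without TG 3 or WT 2 and that of *Lpl* without TG 1, TG 3, WT 1 or WT 2, at adjusted p of up to 0.101, 0.0751, 0.0688 and 0.0805. The part of these cell types in the values of the 7 genes was not tested.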

How the data were processed

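RNA-Seq covered iWAT of 3 *Hlx* transgenic and 3 littermate control mice, with 1 TruSeq library per mouse and single-end reads 100 bases long. The authors aligned them to mm10 and deposited FPKM for each gene and mouse. The submitters' processing notes name CASAVA 1.8.2, TopHat2 2.0.9, Bowtie2 2.1.0 and Cufflinks 2.2.1. The annotation and options are not given in the sources used here. The FPKM sum per library was 466059 to 542096, and the read depth is not known from FPKM.

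The 11692 of 19445 loci whose mean FPKM exceeded 1 in either genotype were tested as log2(FPKM + 1) with limma 3.58.1 in R 4.3.3 (lmFit, eBayes with trend, two-sided, Benjamini-Hochberg adjustment over all loci tested, threshold 0.05), which was checked on simulated data. Single differences were tested by two-sided exact permutation over 20 arrangements. A symbol on several rows (409 symbols) was read from the row of highest mean FPKM. Figures were drawn with matplotlib 3.10.9. GENCODE vM21 and RefSeq served for positions and sequences.

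The 7 genes and the 17 lists (173 genes, 7 with no row of their own) were chosen with earlier results of these data known. Of each list, every called gene was named, or else the 2 most abundant, and the 3 loci most like each member. Some genes that this rule or the lists took in are not reported here. Further genes were named for their role after their values were seen. Alternatives changed the pseudocount, filter, scaling, variance model, weights, block, rows, threshold and mice. Mice are the replicates. A limma p-value sets the genotype difference against the spread between mice, with the variance of each locus drawn toward that of loci of similar level. An exact p is the share of arrangements with a difference at least as large.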

Additional observations from a re-analysis of the deposited data

How the results depend on the processing

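Without the filter on low FPKM, 748 loci were called higher and 381 lower, none of the 7 genes was called by limma (3 were higher at an unadjusted p under 0.05), and the log2 differences of *Ngfr*, *Nrg4* and *Mbp* were 0.84 (adjusted p = 0.115), 0.56 (0.0543) and 0.54 (0.0874). At an adjusted p under 0.01, 569 loci were higher, 199 lower and none of the 7 genes was called. When 1 mouse was left out, 780 to 1295 loci were higher, 329 to 906 lower and 0 to 2 of the 7 genes higher. Over these 6 fits the log2 difference was 0.68 to 1.00 for *Ngfr*, 0.46 to 0.64 for *Nrg4*, 0.46 to 0.65 for *Mbp*, -0.067 to 0.034 for *Nrg1* and -0.64 to 0.094 for *Sox10*, and that of *Erbb3* less *Sox10* was -0.29 to 0.19 and of *Pmp22* less *Sox10* -0.42 to 0.41. With sample quality weights *Nrg1* gave 0.029 and *Sox10* 0.064. With a pseudocount of 0.1, *Erbb3* less *Sox10* gave -0.029 and *Pmp22* less *Sox10* 0.042. Chosen after seeing the data, differences within each mouse were, for *Sox10*, 0.067 relative to *Elf5*, 0.23 to *Epcam* and 0.055 to *Krt5* and for *Erbb3* 0.082, 0.24 and 0.070. *Elf5* was the locus most like *Sox10*, so a small difference between them follows from that choice. The cause of these changes was not tested.

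Mice of the same number did not deviate together (correlations of 0.01, 0.03 and 0.07), and mice of unlike number gave -0.186 to 0.135. These values gave no sign that the numbers pair the mice. They cannot settle whether littermates shared a number. With the number as a replicate block, 1230 loci were higher and 656 lower, *Ngfr* gave 0.84 (adjusted p = 0.0608) and *Nrg4* and *Mbp* stayed called. *Sox10*, *Erbb3* and *Pmp22* were called under none of the alternatives. A pseudocount of 0.1, sample quality weights, quantile normalization, median-ratio scaling, the filter on the mean of all mice, eBayes without trend and summed rows changed no call of the 7 genes.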
